A study of Mus musculus with 8 samples.

Results

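The 10 genes described here are markers of the dermal fibroblast lineage, of its papillary and reticular states and of fibroblast activation. They were chosen by symbol, as En1, Twist1, Twist2, Dpp4, Pdpn, Lrig1, Ly6a, Thy1, Fap and S100a4, and all 10 were among the 15111 genes of the deposited table. The comparison of TGFβ1FKO with control fibroblasts asks whether these markers differ where fibroblasts have lost Tgfb1. None of the 10 passed limma's test for a difference, which few genes did (13 of 15111, or 0.086%), while Tgfb1 itself fell to 20.2% of its control level in the same libraries. For 7 of the 10 genes the 95% interval of the difference stayed within a log2 fold change of 0.6 in either direction. The exceptions were Dpp4, Fap and S100a4, which had the fewest reads.

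The cells are primary cultures of dermal fibroblasts from adult mice, 10 weeks old, with tamoxifen in the diet. By the study's methods the cells were first cultured in medium with serum. They were then kept for 72 h on fibronectin in serum replacement medium, and polyadenylated RNA was sequenced in 4 control and 4 TGFβ1FKO libraries. The groups differ by a transgene. Floxed Tgfb1 (Tgfb1fl/fl) is common to both, and TGFβ1FKO alone adds Col1a2-CreERT, a Cre recombinase that tamoxifen activates and the promoter of a fibroblast collagen gene drives. Tamoxifen, too, was given to both. The labels number the libraries and do not say that each came from a separate mouse, so p-values measure the spread between these samples, which may be partly technical. The genes of the table held 16988998 to 21806579 reads per control library and 17445002 to 23071528 per TGFβ1FKO library.

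Fibroblasts of the dermis arise from embryonic mesenchyme and separate into an upper papillary layer, which lies under the epidermis and supports hair follicles, and a lower reticular layer, which makes the bulk of the collagen matrix and adjoins the fat. Transcription factors record the embryonic origin of the cells, surface proteins separate the layers, and proteases and cytoskeletal regulators appear when fibroblasts are activated. TGFβ1 is the best known inducer of activated, contractile fibroblasts.

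Tgfb1, the deleted gene, checks the labels. Its normalised count, its reads after division by the library's size factor, was 1401, 1298, 1483 and 1314 in control replicates 1 to 4 and 326.4, 259.9, 228.4 and 294.7 in TGFβ1FKO replicates 1 to 4. Every TGFβ1FKO library lay below every control library (log2 fold change -2.31, SE 0.10, adjusted p = 1.53e-07, limma). B9d2, which ends 444 bases before Tgfb1 on the same strand, fell as well, from a mean of 144.1 to 46.0 normalised counts (log2 fold change -1.64, adjusted p = 0.00499). Both were called without each of the 8 libraries in turn, and Tgfb1 but not B9d2 without the mean-variance trend of the test (adjusted p = 0.177 for B9d2, limma). Fold changes throughout are differences of log2(normalised count + 1), TGFβ1FKO minus control, and the added 1 shrinks differences where counts are low. Adjusted p-values are those of limma's moderated test after Benjamini-Hochberg adjustment over all 15111 genes, and a gene was called at an adjusted p under 0.05 with an absolute log2 fold change over 0.6.

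In limma's test 0 of the 10 markers were called, against 0.086% of all genes (13 of 15111). The count of 13 was 7 without control replicate 1, 6 without control replicate 2, 5 without control replicate 3 and 32 without control replicate 4, and 5 without TGFβ1FKO replicate 2 or 4. With each of these libraries left out, 0 of the 10 markers were called. At an unadjusted p under 0.05 the number was also 0 of 10, where 7.46% of all genes passed (1127 genes). The smallest unadjusted p of the 10 in limma's test was 0.0683, for Fap, and the smallest adjusted p was 0.677. The TGFβ1FKO and control libraries overlapped in every one of the 10 genes, so 0 of 10 were without overlap, against 3.79% of all genes (573 genes). Without control replicate 1, control replicate 3 or TGFβ1FKO replicate 3 it was 1 of 10, Thy1, S100a4 and Fap in that order. Over all 15111 genes it was then 1086, 880 and 936. Each of these libraries had alone made the groups of its marker overlap, so leaving it out had to separate them. Of the 10, 6 had a higher and 4 a lower mean log2 value in TGFβ1FKO fibroblasts. Their median log2 fold change was 0.046, against 0.0031 over all genes.

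**Figure D1:**
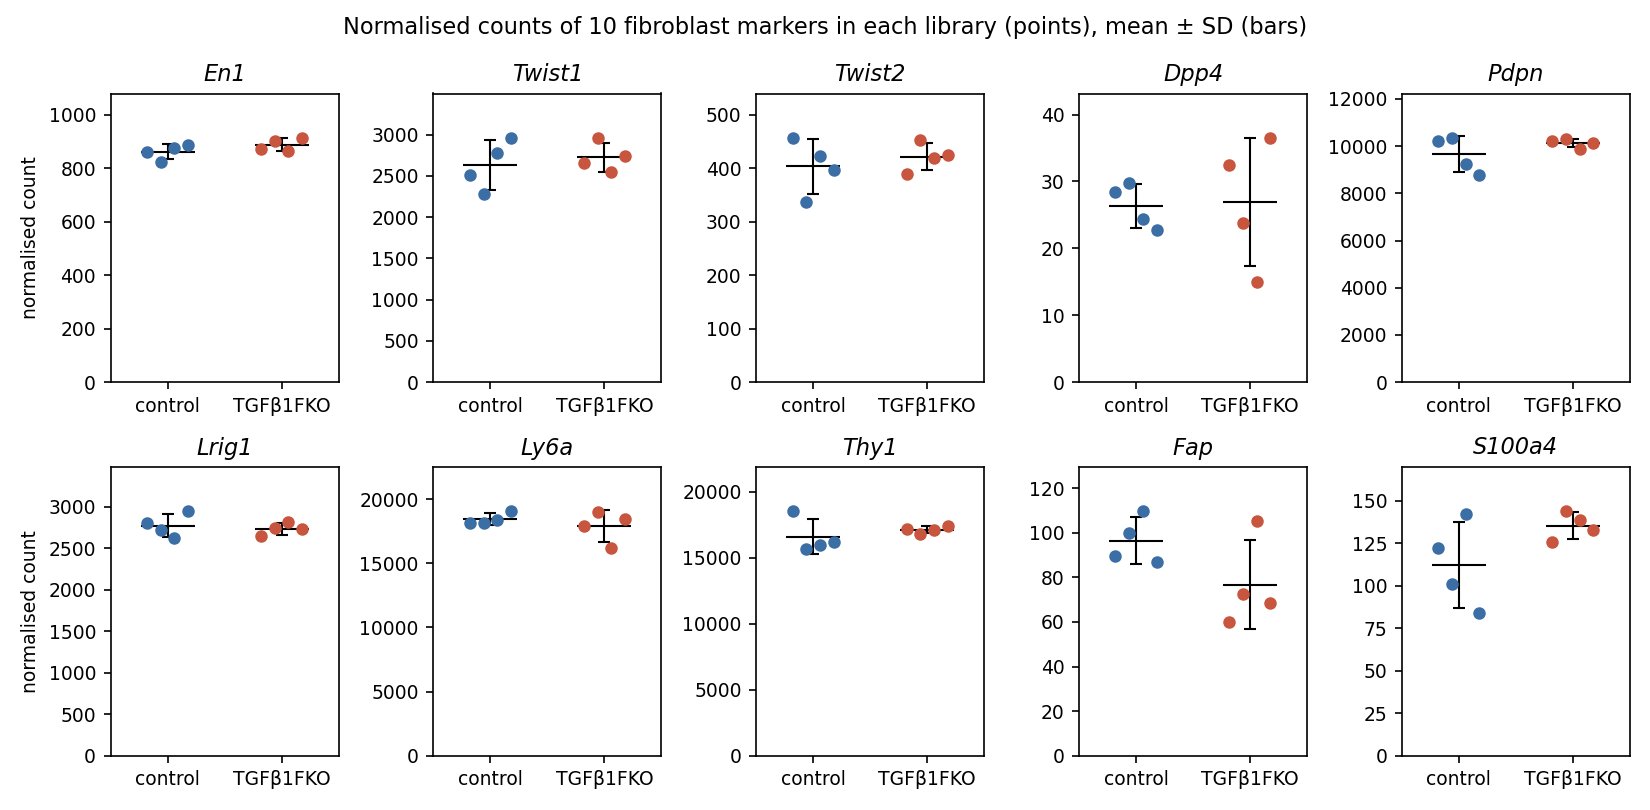
Normalised counts of the 10 markers, with 1 panel per gene and a vertical axis that starts at 0; points are the 4 control (blue) and 4 TGFβ1FKO (red) libraries in the order of their replicate numbers, and bars are the mean ± SD. The groups overlap in each of the 10 panels, with the widest relative spread in the TGFβ1FKO libraries of Dpp4 and Fap.

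En1, Twist1 and Twist2 are transcription factors that mark the origin of dermal fibroblasts. En1 (Engrailed 1) is a homeobox gene that is switched on in the embryonic precursors of a fibroblast lineage of the dorsal skin that deposits much of the scar matrix after wounding. En1 (ENSMUSG00000058665; GRCm38 chromosome 1, 120602418 to 120607992, plus strand) had normalised counts of 860.3, 824.5, 876.0 and 887.9 in the control libraries and 871.7, 903.1, 864.4 and 915.1 in the TGFβ1FKO libraries. The 2 TGFβ1FKO libraries with the highest counts, replicates 2 and 4, lay above all controls, and replicates 1 and 3 lay among them. En1 had a log2 fold change of 0.044 (SE 0.055, limma, adjusted p = 0.888), and its 95% interval, as a ratio of TGFβ1FKO to control, was 0.949 to 1.12.

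Twist1 (ENSMUSG00000035799; chromosome 12, 33957671 to 33959829, plus strand) encodes a basic helix-loop-helix factor that specifies dermal precursors and keeps cells mesenchymal. Its normalised counts were 2506, 2278, 2782 and 2959.9 in the control libraries and 2651, 2965, 2547 and 2741 in the TGFβ1FKO libraries. The control libraries spread more widely than the TGFβ1FKO libraries, with control replicate 2 the lowest of all 8, and all TGFβ1FKO values except that of replicate 2 lay within the control range. Twist1 had a log2 fold change of 0.056 with an SE of 0.079 (limma, adjusted p = 0.906) and a ratio of 0.924 to 1.17. Without control replicate 2 the sign changed, to -0.011.

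Twist2, also called Dermo1 (ENSMUSG00000007805; chromosome 1, 91801461 to 91848028, plus strand), is the closest relative of Twist1 and is expressed in the developing dermis. Its normalised counts were 457.7, 336.8, 423.6 and 396.0 in the control libraries and 390.2, 453.6, 419.3 and 425.4 in the TGFβ1FKO libraries. All 4 TGFβ1FKO values lay inside the control range, whose ends were control replicates 2 and 1. This gave Twist2 a log2 fold change of 0.072 (SE 0.10, limma, adjusted p = 0.900) and a ratio of 0.910 to 1.21. As for Twist1, the sign changed without control replicate 2, to -0.012.

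Reads of related genes can be told apart only where their sequences differ. The longest run of identical bases in the coding sequences of Twist1 and Twist2 has 23 bases and lies in the part that encodes the basic helix-loop-helix domain, which pairs the factors with E proteins and binds DNA. It is shown in capitals with 30 coding bases on either side. In Twist1 the run lies on the plus strand at chr12:33958380-33958402 and in Twist2 on the plus strand at chr1:91801891-91801913 (GRCm38, GENCODE M21).
Twist1: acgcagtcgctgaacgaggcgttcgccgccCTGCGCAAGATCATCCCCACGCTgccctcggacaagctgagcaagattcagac
Twist2: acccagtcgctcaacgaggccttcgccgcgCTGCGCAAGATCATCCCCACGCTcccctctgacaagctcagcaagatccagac
Of the 83 bases shown, 75 are the same in both genes. Outside annotated overlaps, no stretch of 100 bases of a Twist1 or Twist2 transcript occurs in another gene's transcripts. Twist2 does overlap an antisense gene, Gm29100, in 1477 of its 3174 exonic bases. The libraries were non-directional, so reads from these bases cannot be assigned to a strand, and how such reads were counted is not given in the sources used here. Gm29100 had mean normalised counts of 24.2 in control and 24.3 in TGFβ1FKO fibroblasts.

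Dpp4, Pdpn and Lrig1 encode cell surface proteins used to separate upper from lower dermal fibroblasts. Dpp4 (CD26) is a dipeptidyl peptidase that marks fibroblasts of the En1 lineage and of the fascia. Dpp4 (ENSMUSG00000035000; chromosome 2, 62330073 to 62412231, minus strand) had normalised counts of 28.4, 29.8, 24.4 and 22.7 in the control libraries and 32.4, 23.8, 14.9 and 36.6 in the TGFβ1FKO libraries. Both the lowest and the highest value of all 8 libraries came from the TGFβ1FKO group, in replicates 3 and 4. These values rest on only 18 to 33 reads per library, for which counting alone gives a coefficient of variation of 19.4%, against 12.6% measured between control and 35.6% between TGFβ1FKO libraries. The means were 26.3 ± 3.30 and 26.9 ± 9.60 (SD, n = 4), slightly higher in TGFβ1FKO libraries, whereas the mean log2 value was slightly lower. Dpp4 had a log2 fold change of -0.033 (SE 0.28, limma, adjusted p = 0.990), and with a ratio of 0.640 to 1.49 its 95% interval was the widest of the 10. The interval gives the differences that these libraries leave possible and is not a limit of detection. Its sign changed without control replicate 1 (0.0052), control replicate 2 (0.027) or TGFβ1FKO replicate 3 (0.21).

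Pdpn (podoplanin), a mucin-type glycoprotein of papillary fibroblasts that is also found on lymphatic endothelium, was among the most abundant of the 10. Pdpn (ENSMUSG00000028583; chromosome 4, 143267431 to 143299564, minus strand) had normalised counts of 10233, 10364, 9262 and 8789 in the control libraries and 10219, 10290, 9869.7 and 10136 in the TGFβ1FKO libraries. Control replicates 3 and 4 were below all TGFβ1FKO libraries, control replicate 2 was above them, and control replicate 1 lay among them. The coefficient of variation was 7.88% between control libraries and 1.81% between TGFβ1FKO libraries. The groups differed by a log2 fold change of 0.071 (SE 0.060, limma, adjusted p = 0.814), a ratio of 0.960 to 1.15.

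Lrig1, a leucine-rich repeat protein that lowers signalling by receptors of the EGF receptor family, marks fibroblasts of the developing upper dermis. Lrig1 (ENSMUSG00000030029; chromosome 6, 94604529 to 94700158, minus strand) had normalised counts of 2799, 2718, 2628 and 2948 in the control libraries and 2647, 2742, 2815 and 2732 in the TGFβ1FKO libraries. All 4 TGFβ1FKO values lay inside the control range. Lrig1 had a log2 fold change of -0.020 (SE 0.051, limma, adjusted p = 0.953), which was 0.010 without control replicate 4. Its ratio of 0.914 to 1.06 was the narrowest 95% interval of the 10. Lrig1 overlaps Slc25a26 on the opposite strand in 144 of its 5585 exonic bases, and Slc25a26 had an adjusted p of 0.926 in limma's test.

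Ly6a, better known as Sca-1, is a small glycosylphosphatidylinositol-anchored protein of reticular and hypodermal fibroblasts and of adipocyte precursors in the mouse. Ly6a (ENSMUSG00000075602; chromosome 15, 74994877 to 74998031, minus strand) had normalised counts of 18137, 18171, 18401 and 19067 in the control libraries and 17905, 19029, 16201 and 18469 in the TGFβ1FKO libraries. TGFβ1FKO replicate 3 was the lowest of all 8 libraries and replicate 1 was also below every control, whereas replicates 2 and 4 lay within the control range. For Ly6a the log2 fold change was -0.045 (SE 0.060, limma, adjusted p = 0.897) and the ratio 0.885 to 1.06. Without TGFβ1FKO replicate 3 the log2 fold change was 0.0017.

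Ly6a sits in a cluster of related genes on chromosome 15, and its nearest measured neighbours were Ly6i and Ly6c1. The longest run of identical bases in the coding sequences of Ly6a and Ly6c1 was 45 bases, coding positions 37 to 81 of both genes counted from the start codon. It is shown in capitals with 30 coding bases on either side, to show how alike the genes are.
Ly6a: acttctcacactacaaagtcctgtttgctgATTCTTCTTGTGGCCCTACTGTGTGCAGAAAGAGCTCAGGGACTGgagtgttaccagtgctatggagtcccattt
Ly6c1: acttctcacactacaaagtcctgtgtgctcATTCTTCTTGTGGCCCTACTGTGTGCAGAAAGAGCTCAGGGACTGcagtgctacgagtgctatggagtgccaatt
Over the whole transcripts, 1.45% of the stretches of 100 bases of Ly6a also occur in Ly6c1. Ly6c1 had normalised counts of 4688 ± 299.3 in control and 4774 ± 411.2 in TGFβ1FKO fibroblasts (mean ± SD, n = 4), and the groups overlapped. Ly6i had a mean of 8.48 in control and 5.49 in TGFβ1FKO libraries.

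Thy1 (CD90), a glycosylphosphatidylinositol-anchored protein of the immunoglobulin superfamily, is expressed by most dermal fibroblasts whatever their layer, and also by T cells and neurons. Thy1 (ENSMUSG00000032011; chromosome 9, 44043384 to 44048579, plus strand) had normalised counts of 18544, 15668, 16004 and 16207 in the control libraries and 17218, 16818, 17091 and 17403 in the TGFβ1FKO libraries. Control replicate 1 was the highest of all 8 libraries, and the other 3 controls lay below every TGFβ1FKO library. Leaving control replicate 1 out therefore had to separate the groups and raise the fold change. Without control replicate 1 the groups no longer overlapped and the log2 fold change of Thy1 was 0.10 (limma, adjusted p = 0.744, which ran from 0.744 to 0.976 over the alternatives), against 0.048 (SE 0.061, adjusted p = 0.888; ratio 0.944 to 1.13) with all libraries. Without that library the groups did not overlap in 1086 of the 15111 genes.

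Fap and S100a4 are used as markers of activated fibroblasts, and their log2 fold changes lay furthest from 0 of the 10, with opposite signs, although neither passed limma's test. Fap (fibroblast activation protein) is a serine protease of the same family as Dpp4, and among the measured genes the 2 are neighbours on chromosome 2, 88712 bases apart. Fap (ENSMUSG00000000392; chromosome 2, 62500943 to 62574075, minus strand) had normalised counts of 89.5, 99.9, 109.8 and 86.9 in the control libraries and 59.8, 72.5, 105.5 and 68.7 in the TGFβ1FKO libraries. TGFβ1FKO replicates 1, 2 and 4 lay below every control, while replicate 3 was within the control range. Leaving replicate 3 out therefore had to separate the groups and lower the fold change. Fap had a log2 fold change of -0.36 (SE 0.18, limma, adjusted p = 0.677), with a ratio of 0.598 to 1.02. By itself, Fap had a p of 0.114 in a two-sided exact permutation test, in which 4 libraries against 4 allow no p below 0.0286. Without TGFβ1FKO replicate 3 the groups of Fap did not overlap and the log2 fold change was -0.52, which did not pass the test either (adjusted p = 0.673, limma, 0.536 to 0.953 over the alternatives). The unadjusted p of Fap was then 0.00702 in limma's test, and the groups did not overlap in 936 of the 15111 genes, against 573 with all libraries.

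The coding sequences of Fap and Dpp4 are of nearly the same length, 2283 and 2280 bases, and share no identical run longer than 21 bases. That run, shown in capitals with 30 coding bases on either side, covers coding positions 592 to 612 of Fap and 580 to 600 of Dpp4.
Fap: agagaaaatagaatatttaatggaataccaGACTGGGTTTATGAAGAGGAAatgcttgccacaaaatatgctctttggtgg
Dpp4: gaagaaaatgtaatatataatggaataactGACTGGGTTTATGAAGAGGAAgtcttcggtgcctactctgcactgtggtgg
Of these 81 bases, 61 are identical. No stretch of 100 bases of a Fap transcript occurs in another gene's transcripts. Dpp4 overlaps the antisense gene Gm13561 in 232 of its 6319 exonic bases, and 2.13% of its stretches of 100 bases also occur there, on the opposite strand. Gm13561 was not in the table.

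S100a4 (fibroblast-specific protein 1) encodes a small calcium-binding protein that binds non-muscle myosin and is also made by macrophages. S100a4 (ENSMUSG00000001020; chromosome 3, 90603771 to 90606045, plus strand) had normalised counts of 122.2, 100.9, 141.9 and 83.9 in the control libraries and 125.7, 144.0, 138.7 and 133.0 in the TGFβ1FKO libraries. The TGFβ1FKO libraries lay close together near or above the top of the control range, and control replicate 3 was higher than 3 of them. The other controls lay below all of them, so leaving control replicate 3 out had to separate the groups and raise the fold change. The coefficient of variation was 22.5% in controls and 5.79% in TGFβ1FKO fibroblasts, where counting alone gives 8.94%. S100a4 had a log2 fold change of 0.29 (SE 0.16, limma, adjusted p = 0.703) and a ratio of 0.969 to 1.55, and a two-sided exact permutation test gave p = 0.143. Without control replicate 3 the groups of S100a4 did not overlap, and the log2 fold change was 0.41 (limma, adjusted p = 0.884, 0.576 to 0.902 over the alternatives). The unadjusted p of S100a4 was then 0.0174 in limma's test, and the groups did not overlap in 880 of the 15111 genes. Without control replicate 4 instead, the log2 fold change of S100a4 was smaller, at 0.16 (limma, adjusted p = 0.735).

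S100a4 is a short gene of 584 exonic bases, and 302 of them are also exons of Gm42674, a gene model on the same strand. How reads in these bases were assigned is not given in the sources used here, so the level of S100a4 is uncertain. Gm42674 was not in the table, so its part in these reads was not tested. S100a4 was compared over the same bases in each library, with that part unknown. Its nearest measured neighbours in the S100 cluster were S100a3, with a mean of 6.49 in control and 11.5 in TGFβ1FKO libraries, and S100a6, with 19063 ± 2238 and 19369 ± 1486 (mean ± SD, n = 4). The groups of both neighbours overlapped.

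**Figure D2:**
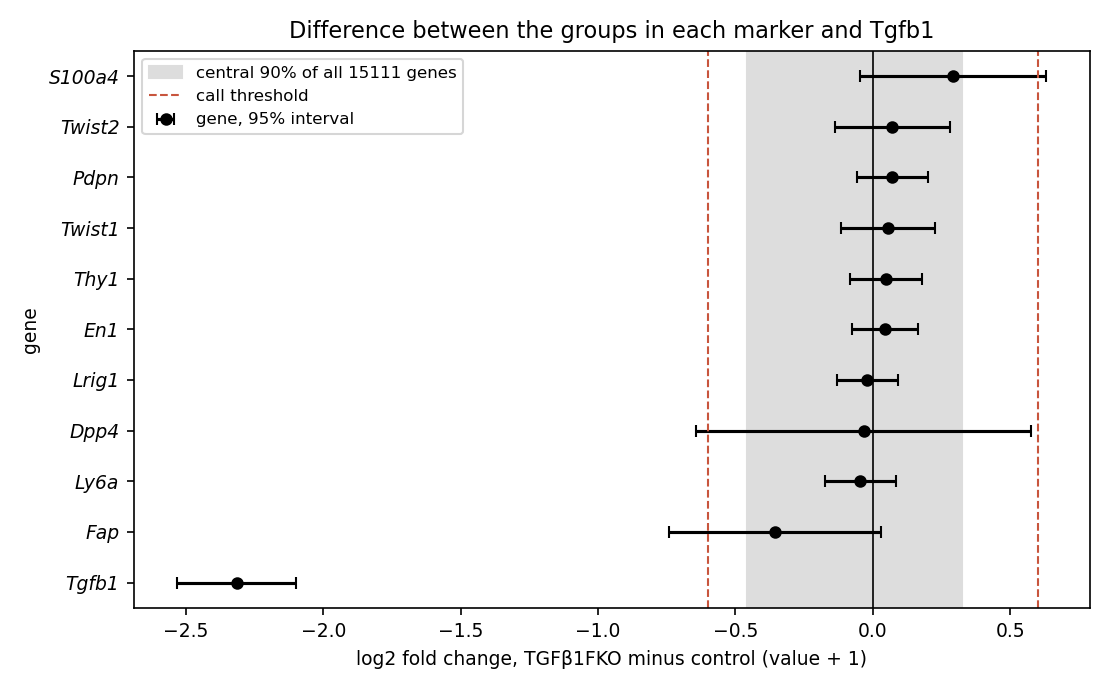
Log2 fold change of each marker and of Tgfb1 (points, TGFβ1FKO minus control, on the log2(normalised count + 1) scale) with its 95% interval; the grey band holds the central 90% of all 15111 genes, from -0.46 to 0.33, and dashed lines mark 0.6 in either direction. The intervals of the 10 markers all include 0, that of Tgfb1 does not, and those of Dpp4, Fap and S100a4 reach past a dashed line.

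Among genes averaging at least 50 normalised counts the central 90% of log2 fold changes was narrower, from -0.23 to 0.20. Fap, at -0.36, and S100a4, at 0.29, lay inside the central 90% of all genes and outside this narrower range.

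Across the 10 genes the median absolute log2 fold change was 0.052, against 0.088 over all genes. The 95% interval lay within 0.6 in either direction for 7 of the 10, against 72.2% of all genes and 92.4% of the 11561 genes whose normalised count averaged at least 50, as 9 of the 10 did. The median coefficient of variation of the 10 was 9.37% between control and 5.97% between TGFβ1FKO libraries, where all genes had 10.6% and 9.23%. The genes averaging at least 50 had 8.42% and 7.18%, so the median of the 10 was above theirs in control and below theirs in TGFβ1FKO libraries. En1 and Ly6a were the most even markers between control libraries, at 3.19% and 2.34%. No single library was lowest or highest throughout. Control replicate 2 held the lowest of the 8 values in 4 of the genes, En1, Twist1, Twist2 and Thy1, and the highest in Pdpn.

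Levels were compared between genes per kilobase of exons. Ly6a was the most abundant, with 15306 ± 358.0 (SD, n = 4) normalised counts per kb in control and 14856 ± 1014 in TGFβ1FKO fibroblasts. Thy1, at 5544 and 5720.4 per kb, and Pdpn, at 5318 and 5575 per kb, followed, and their ranges over the 8 libraries overlapped. These surface markers lay above 99.8% (Ly6a), 99.3% (Thy1) and 99.2% (Pdpn) of the 15098 genes with an annotated length.

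Below them came Twist1 with a control level of 1616 per kb, Lrig1 with 496.6 and En1 with 328.6, whose ranges did not overlap. S100a4 had 192.2 and Twist2 127.1 per kb in controls, and the ranges of this pair overlapped. Fap, at 17.0 per kb, and Dpp4, at 4.16, were lowest, below the median of 77.5 per kb over all genes. The order of the 10 means was the same in both groups.

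The places of S100a4 and Twist2 in that order depend on the bases they share with other genes. Counted only over exonic bases that no other annotated gene covers, the control level was 398.0 per kb for S100a4, above En1, and 237.8 per kb for Twist2. Over the 8 libraries S100a4 then ran from 297.7 to 510.5 per kb and En1 from 314.2 to 348.8, so their ranges overlapped. These levels hold if all reads in the shared bases went uncounted, which was not tested. Twist1 was more abundant per length than Twist2 on either count.

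**Figure D3:**
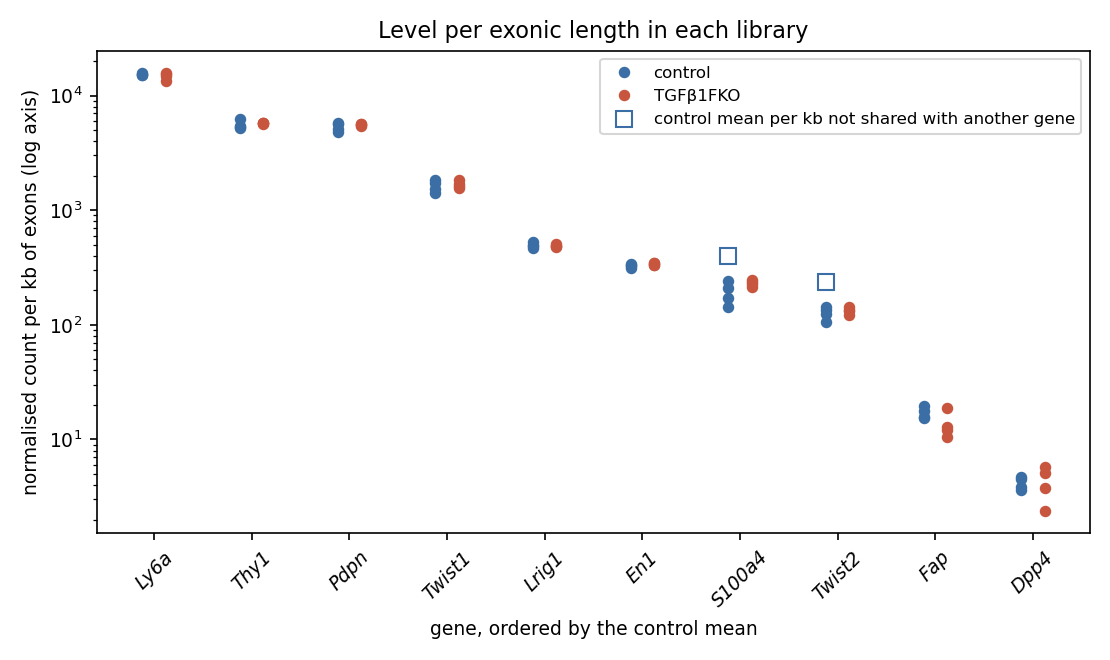
Normalised count per kb of exons (log axis) of the 10 markers in the 4 control (blue) and 4 TGFβ1FKO (red) libraries, ordered by the control mean; open squares give the control mean per kb of exons that no other gene shares, for the genes with over 10% of shared exonic bases. Levels run from 15306 per kb for Ly6a to 4.16 for Dpp4 in controls, and the order of the means is the same in both groups.

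The other genes of these programmes were read from lists of related genes, and limma's test called 0 genes in each of these lists except the Schwann cell markers. Within each list, lowest and highest refer to log2 fold changes where the normalised count averaged at least 50 over the 8 libraries. Counts at an unadjusted p under 0.05 stand against 7.46% of all genes. Of 16 mesenchymal transcription factors besides En1 and the Twist genes, 9 were lower and 7 higher (median log2 fold change -0.056, and 0.0035 for those averaging at least 50). The 3 with an unadjusted p under 0.05 were all lower. Prrx1, a homeobox gene of limb and dermal mesenchyme and the most abundant of them, was also highest at 0.13 (limma, adjusted p = 0.671), and Meox2 lowest at -0.82 (adjusted p = 0.525). E proteins are the dimer partners of Twist factors, and Id proteins withhold E proteins from them. Among these 7 genes, 3 lower and 4 higher, the median was 0.010. The 2 with an unadjusted p under 0.05 were both lower, Id1 at -0.33 and Id3 at -0.35, named after their values had been seen (limma, adjusted p = 0.669 and 0.597). The most abundant, Tcf4, was at 0.018, Id2 lowest at -0.43 and Id4 highest at 0.11 (limma, adjusted p = 0.967, 0.675 and 0.915).

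Beside Dpp4, Pdpn and Lrig1, 12 of 13 further papillary genes were measured, 7 lower and 5 higher (median -0.17, and 0.039 for those averaging at least 50), and 1 of the lower genes had an unadjusted p under 0.05. Crabp1, a retinoic acid binding protein, was the most abundant and lowest at -0.29, and Itga8 was highest at 0.40 (limma, adjusted p = 0.671 and 0.682). Beside Ly6a, all 15 reticular and hypodermal genes were measured, 7 lower and 8 higher (median 0.024), and 2 of the lower genes had an unadjusted p under 0.05. Dpt, a matrix protein and the most abundant, was at -0.080, and Tnxb was highest at 0.22 (limma, adjusted p = 0.910 and 0.870). Mgp, an inhibitor of calcification, had normalised counts of 92.9, 231.6, 184.1 and 145.2 in the control libraries and 91.2, 42.5, 78.9 and 72.0 in the TGFβ1FKO libraries. Its groups did not overlap, yet its log2 fold change of -1.16, the lowest of the list, did not pass limma's test (adjusted p = 0.260).

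Of 8 genes of the dermal papilla, the fibroblast cluster of the hair follicle, 5 were measured, 1 lower and 4 higher (median 0.026), and 2 had an unadjusted p under 0.05, 1 lower and 1 higher. Fgf7, the most abundant, was at 0.015 and Fgf10 at 0.37 (limma, adjusted p = 0.967 and 0.331). The lower gene was Sox2, a transcription factor that was named after its values had been seen, with normalised counts of 33.6, 18.1, 46.6 and 10.9 in the control libraries and 5.07, 5.18, 5.81 and 2.22 in the TGFβ1FKO libraries. Its groups did not overlap, and its log2 fold change of -2.21 did not pass limma's test (adjusted p = 0.130). The Schwann cell markers described below, among them Sox10 at -3.01, were lower in the same libraries. Whether Sox2 moved with them was not tested. All 16 general fibroblast genes were measured, 9 lower and 7 higher (median -0.0050), and 0 had an unadjusted p under 0.05. Col1a1, the most abundant, had 653489 ± 54463 normalised counts in control and 664781 ± 27436 in TGFβ1FKO fibroblasts (SD, n = 4). Fbln2 was lowest at -0.18 and Vim highest at 0.10 (limma, adjusted p = 0.688 and 0.767).

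Of 11 activation genes besides Fap and S100a4, 3 were lower and 8 higher (median 0.10). At an unadjusted p under 0.05 there were 6 of them, 2 lower and 4 higher, against 7.46% of all genes. The lower were Postn and Cthrc1, and the higher Col12a1, Inhba and the contractile genes Acta2 and Cnn1. Acta2 was at 0.19 and Cnn1 at 0.42 (limma, adjusted p = 0.654 and 0.536). Cthrc1, Inhba, Acta2 and Cnn1 were named after their values had been seen. Postn (periostin), the most abundant, was lowest at -0.36 and Col12a1 highest at 0.43 (limma, adjusted p = 0.536 and 0.510). Of 23 family relatives of the 10 markers 17 were measured, 10 lower and 7 higher (median -0.022), and 3 of the lower genes had an unadjusted p under 0.05. S100a6 was the most abundant of them, and Prep, a peptidase related to Dpp4 and Fap, was highest at 0.13 (limma, adjusted p = 0.673). Ly6e, a relative of Ly6a, was lowest at -0.32 (adjusted p = 0.260), with normalised counts of 6406, 6723, 6165 and 7512 in the control and 5829, 5369, 4709 and 5589.5 in the TGFβ1FKO libraries, without overlap. The groups also did not overlap for S100b, a relative of S100a4 and a marker of Schwann cells that was named after its values had been seen, at a mean of 47.7 in control and 28.7 in TGFβ1FKO libraries (log2 fold change -0.76, limma, adjusted p = 0.536).

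**Figure D4:**
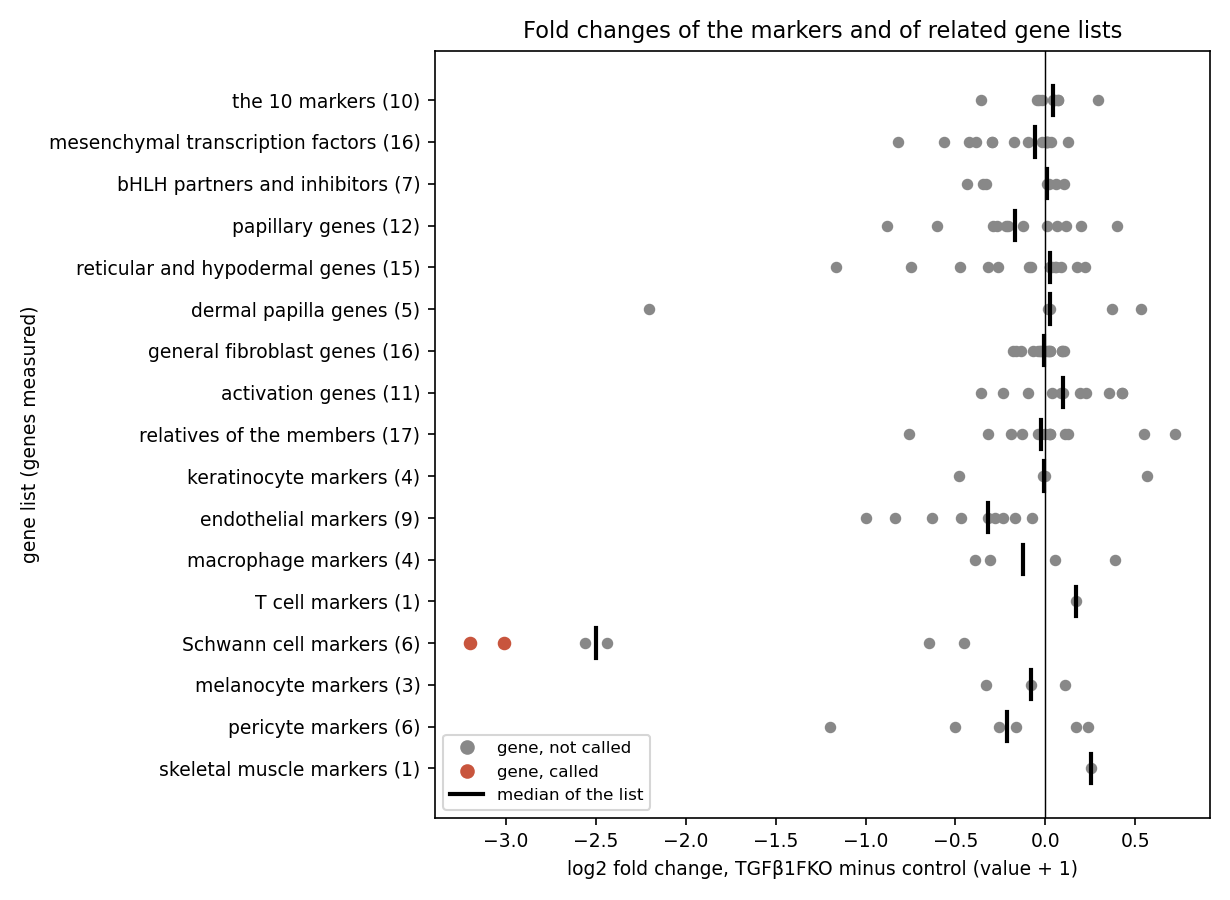
Log2 fold changes (TGFβ1FKO minus control, log2(normalised count + 1) scale) of the genes of each list, with the number measured in brackets; grey points are genes not called, red points are called genes and black bars are list medians. The 10 markers lie between -0.36 and 0.29, and the called genes are 2 Schwann cell markers.

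Dermal cultures can hold other cells, some of which express Thy1, Pdpn, Ly6a or S100a4. Of 7 Schwann cell markers 6 were measured, and all 6 were lower in TGFβ1FKO libraries (median -2.50) at an unadjusted p under 0.05. Sox10, the transcription factor that defines glial cells of the nerve, fell from normalised counts of 132.5, 147.7, 207.4 and 72.1 in the control libraries to 19.3, 7.25, 18.3 and 21.1 in the TGFβ1FKO libraries (log2 fold change -3.01, limma, adjusted p = 0.00499). Foxd3, a factor of the neural crest, fell as well (-3.20, adjusted p = 0.00757). S100b was lower in the same libraries at -0.76, without passing limma's test. Sox10 and Foxd3 were called without each library in turn, and neither without the mean-variance trend.

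The summed normalised count of the Schwann cell markers was 2307, 2094, 2238 and 1635 in the control libraries and 1764, 908.2, 840.3 and 1218 in the TGFβ1FKO libraries. Most of it came from Ngfr, the most abundant of them, at a log2 fold change of -0.65, and Mbp was highest of the list at -0.45. The glial gene Gfap was not in the table, which holds only genes with over 40 reads in all. Fewer cells of a type and less RNA per cell cannot be told apart in these bulk libraries. The part of such cells in the counts of the 10 markers was not tested.

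Pdpn is also a lymphatic and Ly6a a blood endothelial gene, and all 9 endothelial markers were lower (median -0.32). Their summed count was 802.6, 937.1, 860.5 and 646.9 in the control libraries and 646.7, 654.5, 656.0 and 606.0 in the TGFβ1FKO libraries. Tek was the most abundant at a mean of 249.2, Cdh5 lowest at -0.63 (limma, adjusted p = 0.702) and Flt4 highest at -0.076. Only Pecam1, named after its values had been seen, had an unadjusted p under 0.05, with a mean of 50.8 in control and 25.4 in TGFβ1FKO libraries (log2 fold change -0.99, limma, adjusted p = 0.587). The lymphatic genes Lyve1 and Prox1, named after their values had been seen, had means of 7.13 and 36.3 normalised counts, against 9895 for Pdpn. Of 7 pericyte markers 6 were measured (median -0.21), with summed counts of 1260.3, 1925, 1965 and 1449.8 in control and 1248, 1682, 1559 and 1532 in TGFβ1FKO libraries. Notch3 was their most abundant and highest at 0.24, and Cspg4, the only 1 with an unadjusted p under 0.05, lowest at -0.50 (limma, adjusted p = 0.599).

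S100a4 is also made by macrophages and Thy1 by T cells. Of 8 macrophage markers 4 were measured (median -0.13), without the defining genes Ptprc, Adgre1, Itgam and C1qa, and their summed counts were 511.9, 459, 477.9 and 558.0 in control and 434.8, 519.9, 303.9 and 470.9 in TGFβ1FKO libraries. Lyz2 was the most abundant and lowest at -0.39, and Csf1r highest at 0.053. Of 7 T cell markers only Lck was in the table, at a mean of 9.99 normalised counts and a log2 fold change of 0.17. The CD3 genes Cd3e, Cd3d and Cd3g were not in it. Thy1 had a mean of 16869 in the same libraries.

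Of 10 keratinocyte markers 4 were measured (median -0.0069), and Krt5 and Krt14 were not in the table. Itgb4, their most abundant, was at -0.48 without overlap of the groups (limma, adjusted p = 0.555), and Krt10 at -0.0007. At an unadjusted p under 0.05 there were 2 of the 4, Itgb4 and, in the other direction, Trp63, a factor of basal keratinocytes that was named after its values had been seen (mean 25.1 in control and 37.8 in TGFβ1FKO libraries, log2 fold change 0.57, limma, adjusted p = 0.632). Of 6 melanocyte markers 3 were measured (median -0.081), of which only Mitf, at 0.11, averaged at least 50. None of the 5 adipocyte markers was in the table, and of 6 skeletal muscle markers only Acta1 was, at 0.25. None of the macrophage, T cell, melanocyte and skeletal muscle markers had an unadjusted p under 0.05 in limma's test.

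**Figure D5:**
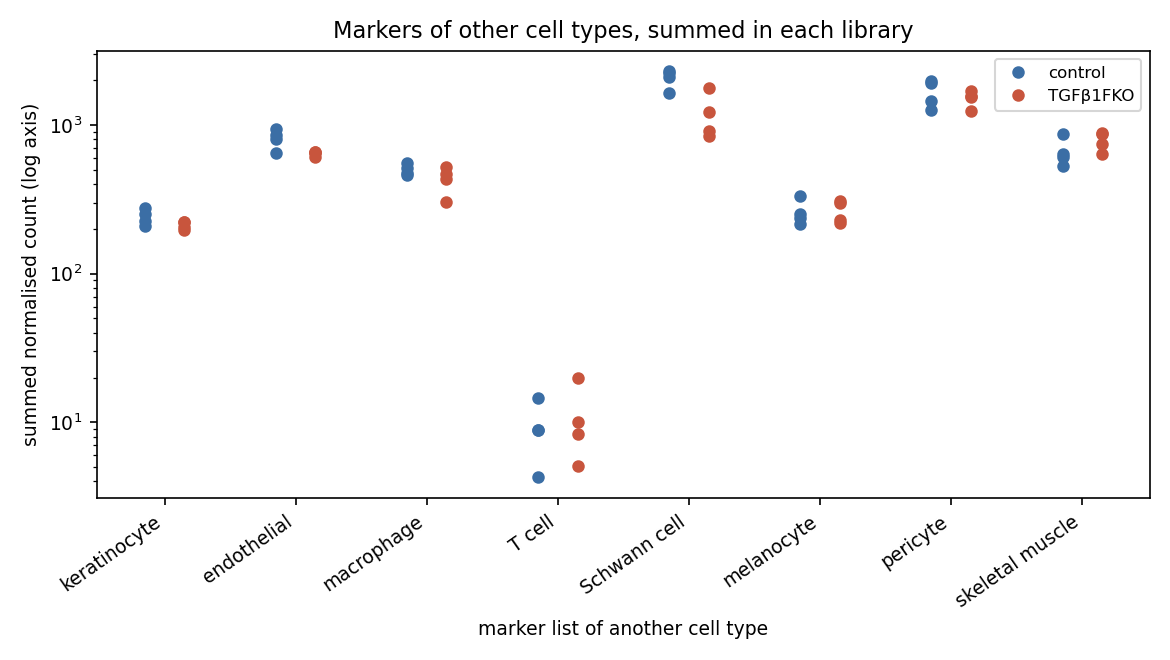
Summed normalised counts (log axis) of the measured markers of 8 other cell types in the 4 control (blue) and 4 TGFβ1FKO (red) libraries. The Schwann cell sums of TGFβ1FKO replicates 2, 3 and 4 lie below all controls and that of replicate 1 above the lowest control.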

How the data were processed

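RNA was sequenced from 8 dermal fibroblast cultures, grouped by the genotype in the labels. The submitters' processing notes name CASAVA 1.8, HISAT2 2.0.5, featureCounts 1.5.0-p3, R 4.3.2 and DESeq2 1.42.0, and the builds GRCm38 and mm10. The deposited signal is reads per gene divided by the library's size factor plus 0.5, computed by the authors with DESeq2 after removing genes with few reads. Their table also holds a mean, fold changes, standard errors, test statistics and p-values, which were not used. The age of the mice is from the study's methods.

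After subtracting 0.5 and adding 1, log2 values of all 15111 genes were compared with limma 3.58.1 (R 4.3.3, mean-variance trend), and single genes with two-sided exact permutation tests. The fit was tested on simulated data. Changed genes there averaged at least 50 normalised counts, with log2 fold changes of 1 in either direction. Differences as small as those of the markers, and changed genes as low as Dpp4, were not simulated. Divided by the value of 1 read, 100% of the values of each library came within 0.1 of a whole number; the recovered reads served for depths and for TMM scaling, computed with separate code. Gene models are GENCODE M21, which held 15098 of the genes. Replicate pairs differed by more than sampling noise.

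The 10 markers and the lists were chosen with earlier results of these data known, and 2 further Schwann cell genes were not analysed here. Named genes are the markers, Tgfb1, overlapping and neighbouring genes and, per list, called genes, the most abundant gene and those with the lowest and highest log2 fold change at a mean normalised count of at least 50. Other measured genes are said in the text to be named after their values had been seen. Alternatives changed the scaling, pseudocount, filter, threshold, replicate block and libraries.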

Additional observations from a re-analysis of the deposited data

Results flagged for a closer look

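The summed normalised count of the 15 reticular and hypodermal genes was 32183 in TGFβ1FKO replicate 3, far below the other TGFβ1FKO libraries, which lay between 36853 and 37477. The same library had the lowest Ly6a and Dpp4 values of all 8, with Dpp4 at only 18 reads. Of 54 groups of 4 libraries examined in this way, 1 had a library set so far apart, where chance alone would give about 1 in 20 groups, or 2.7. None of the 20 groups of the 10 markers did. The genes of the list did not all go the same way in TGFβ1FKO replicate 3. Dpt and Tnxb were lowest of the TGFβ1FKO group there. Mgp was higher there than in replicates 2 and 4, as were Gpx3 and Plac8, which were named after their values had been seen. The sums of the control libraries ran from 34008 to 41458.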

How the results depend on the processing

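In limma's test 0 of the 10 markers were called under all 16 alternatives, and 0 or 1 had an unadjusted p under 0.05. The number of all genes called, 13, was 25 at an adjusted p of 0.1, 31 with a replicate block and 2 without the mean-variance trend, and 13 to 16 with TMM or total scaling, pseudocounts of 0.5 and 5 or a mean of at least 10. Leaving out each library in turn gave 5 to 32 called genes, the most without control replicate 4. It gave 0 to 1 markers without overlap of the groups, against 838 to 1412 of the 15111 genes. The markers were Thy1 without control replicate 1, S100a4 without control replicate 3 and Fap without TGFβ1FKO replicate 3. Each of these libraries had alone made the groups of its marker overlap. The log2 fold changes with a library left out crossed 0 for Twist1 (-0.011 to 0.11), Twist2 (-0.012 to 0.14), Dpp4 (-0.20 to 0.21), Lrig1 (-0.045 to 0.010) and Ly6a (-0.076 to 0.0017). They ran from 0.022 to 0.058 for En1, 0.027 to 0.11 for Pdpn, 0.021 to 0.10 for Thy1, -0.52 to -0.25 for Fap and 0.16 to 0.41 for S100a4. No other alternative changed a sign. Same-numbered samples did not deviate together (correlations of -0.134 to 0.159) and none was most like its own number, so the block is not a pairing. The unadjusted p in limma's test was under 0.05 in 3 settings, for Fap with the replicate block (0.0439) and without TGFβ1FKO replicate 3 (0.00702) and for S100a4 without control replicate 3 (0.0174). Why these values moved, the cause, was not tested. Tests with edgeR (quasi-likelihood, TMM) and with DESeq2, against 0 and against 0.6, were not run. The scaling to totals and the fit without the trend were chosen after seeing the data. Dpp4, Fap and S100a4 had the fewest reads, at most 33, 127 and 167 per library. Counting alone gives coefficients of variation of 19.4%, 10.7% and 8.94%, against 12.6%, 10.9% and 22.5% between control libraries and 35.6%, 26.04% and 5.79% between TGFβ1FKO libraries.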
